A study of Mus musculus with 12 samples.

Results

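The genes described here are imprinted regulators of growth, measured as RNA in PER2::LUC mouse embryonic fibroblasts (MEFs) exposed to compounds that act on methyl metabolism. The list holds 10 genes, chosen by name with earlier results of these data in view and selected on a value in the deposited table, which the authors limited to genes of at least 1 CPM (counts of each library brought to the same total) in every library. By that criterion 7 of the 10 were analyzed, among 12591 genes in the table: H19, Igf2r, Meg3, Dlk1, Mest, Plagl1, and Grb10. Igf2, Cdkn1c, and Peg3 were not analyzed here. The cells are an immortalized line on a C57 background, made from heterozygous knock-in mice that carry a luciferase fusion of the clock protein PER2, and each group comprised 3 dishes grown to confluence and sampled after 24 h. Control dishes (CTL) received 3.3 mM HCl, and the same HCl was present with 10 μM Deazaneplanocin A (DZ), an inhibitor of the enzyme AHCY, with 1 mM adenine, and with 1 mM S-adenosylmethionine (SAM), the main methyl donor of cells. All dishes came from this line, and no source says whether they were separate cultures beforehand, so p-values measure the spread between dishes.

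Imprinted genes are transcribed mainly from the allele of a single parent. The parental alleles differ in DNA or histone methylation set in the germline and kept through cell division. Many of them act on fetal growth, with paternally expressed genes tending to promote it and maternally expressed genes tending to restrain it. Several of these genes, H19, Dlk1, and Mest among them, are strongly expressed in fetal tissues and much less after birth. The deposited values do not separate the alleles, so each value below is the sum over both.

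Between 45649534 and 56789090 reads fell on the genes of the table in each library, where reads per gene are estimates derived from coverage. At the low end were Meg3, with 48 to 117 reads, and Mest, with 48 to 683. Closest to the criterion of the table were Meg3 in SAM replicate 3 (log2 CPM of -0.00287, 48 reads) and Mest in CTL replicate 1 (log2 CPM of 0.17, 48 reads). The deposited values use normalized library sizes, 50071006 for SAM replicate 3 against 47504412 reads on the genes of the table. The Meg3 value there is thus slightly below 1 CPM, and the sources do not say which library size the criterion used. Of 12 fibroblast markers, 10 had values, and their summed level was 22300 to 22740 CPM in CTL, 28200 to 28780 in DZ, 24940 to 27260 in adenine, and 16630 to 18020 in SAM. The lower sum in SAM lay in the matrix gene Fn1, whose mean was 12090 CPM in CTL and 4066 CPM in SAM (log2 fold change of -1.58, adjusted p = 2.6e-13), while the other 9 rose, Pdgfra by 2.55 and Col3a1 by 1.31 on the log2 scale (adjusted p = 1.96e-13 and 3.68e-12). Under DZ 8 rose and 1 fell, and under adenine 7 rose and 1 fell, counted at an adjusted p under 0.01 (limma). Of all genes, 22.6% rose and 23.4% fell under DZ by the same count. The shares were 30.6% and 31% under adenine, and 33.7% and 35.7% under SAM. None of the 6 epithelial, 5 endothelial, 5 skeletal muscle, or 5 pluripotent and germ cell markers had a value, whereas Cd68 was the single measured member of 6 leukocyte markers (3.03 to 4.0 CPM in CTL, 2.74 to 3.79 in DZ, 10.8 to 12.4 in adenine, 15.6 to 17.7 in SAM). Of 5 adipocyte markers, Fabp4 and Pparg had values, with sums between 7.72 and 14.9 CPM over all libraries. Fabp4 rose by 1.03 under DZ, 0.59 with adenine, and 1.42 with SAM on the log2 scale (adjusted p = 1.97e-05, 0.00168, and 2.11e-07), the adenine call being lost without CTL replicate 2 (0.50) or adenine replicate 1 (0.44). Pparg fell by 0.59 under adenine and 0.43 with SAM (adjusted p = 7.79e-05 and 0.00106), the SAM call being lost on plain read totals (-0.31), and its value under DZ was 0.26 (adjusted p = 0.0386). The part of these markers in the results below was not tested.

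To show the regulatory stretches of the genes that moved, the 250 bases before the annotated start are printed for 5 of them, from RefSeq (build GRCm38.p6), 5′ to 3′ along the strand of the gene, with each CpG dinucleotide in capitals. CpG is the site of most DNA methylation in mammals. H19 has no entry in the sequence table used here, and 6 of the 7 analyzed genes have 10 entries together. The windows are chr6:30733256-30733505 (plus strand) and chr6:30737800-30738049 (plus strand) for the first and second entry of Mest, chr12:109452573-109452822 (plus strand) for Dlk1, chr10:13090582-13090831 (plus strand) for Plagl1, chr17:12769707-12769956 (minus strand) for Igf2r, and chr11:12037421-12037670 (minus strand) for the first entry of Grb10.
Mest, first window: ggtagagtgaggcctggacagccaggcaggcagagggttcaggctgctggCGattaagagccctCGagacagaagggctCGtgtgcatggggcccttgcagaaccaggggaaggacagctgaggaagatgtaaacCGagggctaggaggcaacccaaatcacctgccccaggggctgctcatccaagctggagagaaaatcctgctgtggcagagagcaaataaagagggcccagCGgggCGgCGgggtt
Mest, second window: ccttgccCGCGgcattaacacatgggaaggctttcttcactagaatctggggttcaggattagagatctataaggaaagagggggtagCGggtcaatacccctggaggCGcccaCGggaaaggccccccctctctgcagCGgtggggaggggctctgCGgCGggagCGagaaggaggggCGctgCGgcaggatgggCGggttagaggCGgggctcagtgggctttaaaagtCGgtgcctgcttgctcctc
Dlk1: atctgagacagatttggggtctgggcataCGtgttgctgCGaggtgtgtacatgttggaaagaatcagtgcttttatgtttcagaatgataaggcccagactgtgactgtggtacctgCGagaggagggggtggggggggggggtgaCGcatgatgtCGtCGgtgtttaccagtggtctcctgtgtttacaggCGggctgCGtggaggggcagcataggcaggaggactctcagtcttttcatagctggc
Plagl1: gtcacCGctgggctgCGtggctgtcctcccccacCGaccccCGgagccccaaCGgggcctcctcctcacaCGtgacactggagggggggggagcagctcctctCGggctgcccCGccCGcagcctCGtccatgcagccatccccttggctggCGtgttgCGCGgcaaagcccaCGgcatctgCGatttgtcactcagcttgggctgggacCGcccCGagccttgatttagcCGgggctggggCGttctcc
Igf2r: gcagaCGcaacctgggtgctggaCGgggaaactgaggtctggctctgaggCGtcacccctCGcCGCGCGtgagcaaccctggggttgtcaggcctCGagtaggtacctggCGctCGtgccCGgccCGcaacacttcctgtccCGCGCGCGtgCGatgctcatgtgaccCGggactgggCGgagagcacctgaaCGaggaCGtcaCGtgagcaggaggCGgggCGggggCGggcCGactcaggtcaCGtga
Grb10, first window: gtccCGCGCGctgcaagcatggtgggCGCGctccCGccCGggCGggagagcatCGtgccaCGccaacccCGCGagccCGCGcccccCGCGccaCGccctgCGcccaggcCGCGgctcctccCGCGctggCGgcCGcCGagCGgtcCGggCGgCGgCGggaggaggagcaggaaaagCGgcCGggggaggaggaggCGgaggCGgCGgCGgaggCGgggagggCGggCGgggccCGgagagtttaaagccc

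The CpG count of these windows was 7 and 14 for Mest, 8 for Dlk1, 19 for Plagl1, 27 for Igf2r, and 40 for Grb10, against a median of 6 over 32851 windows of the same length. The Grb10 window had more CpG than 98.7% of all windows, and the Igf2r window more than 91.4%. The Dlk1 window and the first Mest window, of genes with higher RNA under treatment, were near the middle (57% and 53.7% of windows had fewer CpG). The second Mest window had more CpG than 70.6% of windows, and that of Plagl1, higher under DZ and adenine, more than 80.3%. The second Grb10 entry, not printed, held 8. These ranks describe 250 bases each, and no methylation was measured in these files.

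Short motifs were searched on both strands of the same windows. The hexamer TGCCGC, bound by the imprint keeper ZFP57 when methylated, was present in the second Mest entry and in another that overlaps it almost fully, in Plagl1, and in the first Meg3 entry, while 8.68% of all windows held it. CACGTG, the E-box read by the clock factors CLOCK and BMAL1 and by MYC, was present in the windows of Igf2r and Plagl1, against 6.02% of all. TATAAA was present in the first Meg3 entry only, against 12.4% of all. The E2F-like word TTGGCGC was in none of the 10 entries, and neither was its variant with the letters TTCCCGC, against 5.62% of all windows with either word. Apart from TATAAA, each motif contains a CpG, none of them overlaps another by design, and a match says only that the letters occur.

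Across the 7 genes, RNA of Mest, H19, and Dlk1 was higher under each of the 3 treatments, by up to 9.88-fold, and RNA of Igf2r was lower under each, by up to 1.59-fold. Grb10 was lower under adenine and SAM and was not called under DZ. Plagl1 was higher under DZ and adenine and was not called under SAM, and Meg3 did not pass the test in any comparison. In these bulk samples, fewer cells of a type and less RNA per cell cannot be told apart. A gene is called here at a Benjamini-Hochberg adjusted p under 0.01 over all 12591 genes (limma, 1 fit of the 12 libraries), and with 3 dishes against 3 an exact permutation test of a single gene could not go below 0.1.

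By that criterion 5 of the 7 genes were called under DZ, 4 higher and 1 lower, where 45.9% of all genes were called, 22.6% higher and 23.4% lower. Under adenine 6 of the 7 were called, 4 higher and 2 lower, against 61.6% of all genes, 30.6% higher and 31% lower. Under SAM 5 of the 7 were called, 3 higher and 2 lower, against 69.3% of all genes, 33.7% higher and 35.7% lower. Since the list was drawn up with results in view, these counts are a description and no independent evidence. Sizes can be set beside the table in the same way: the absolute log2 fold changes of the 7 genes had a median of 0.52 under DZ, 0.81 under adenine, and 0.89 under SAM, and those of all genes of 0.18, 0.27, and 0.34.

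**Figure D1:**
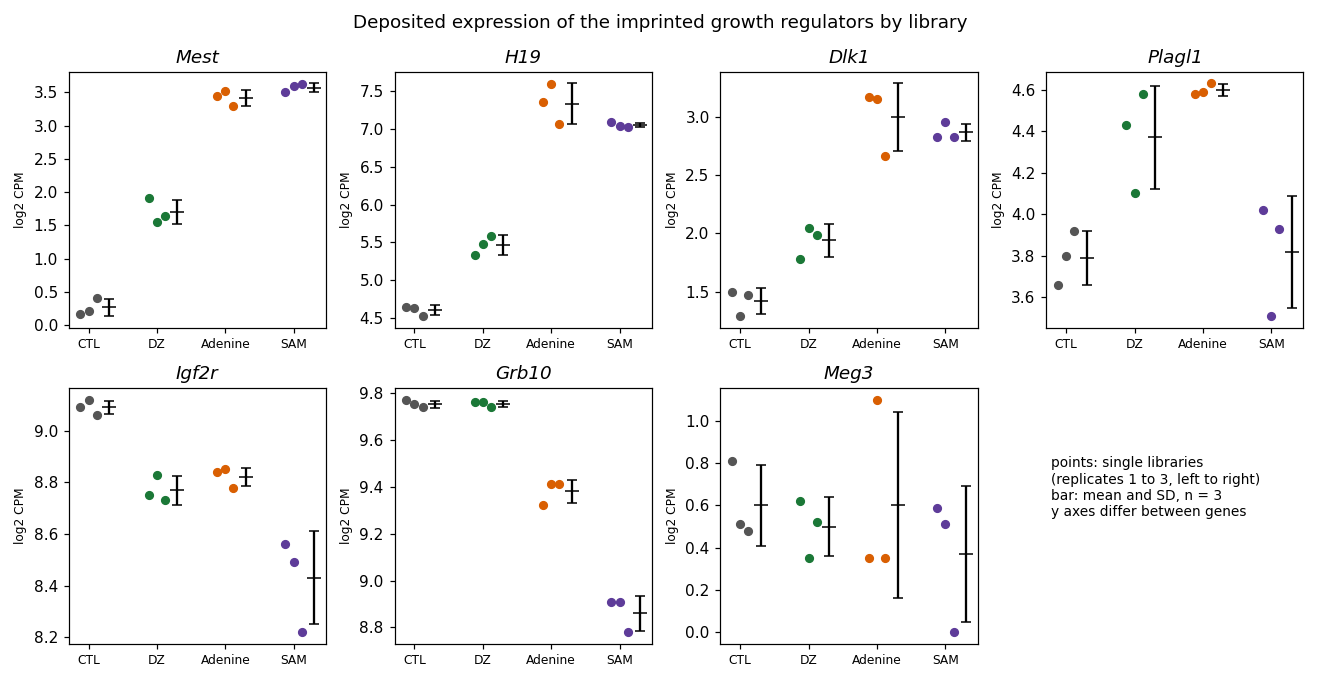
Deposited log2 CPM of each gene (y axis, own range for each panel) in the 12 libraries by group (x axis), with the mean and SD of 3 libraries as a bar beside them. Mest, H19, and Dlk1 step up from CTL to DZ and again to adenine and SAM, Grb10 and Igf2r are lowest in SAM, and the Meg3 groups overlap.

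Dlk1 encodes a transmembrane protein related to the Notch ligands that holds back differentiation of preadipocytes, and is expressed from the paternal allele (chromosome 12, 109418749 to 109429262, plus strand, GRCm39). Its log2 CPM was 1.50, 1.29, and 1.47 in the CTL libraries, 1.78, 2.05, and 1.99 in DZ, 3.17, 3.16, and 2.67 in adenine, and 2.83, 2.96, and 2.83 in SAM. Every treated library lay above every CTL library, and the adenine and SAM libraries above those of DZ. Dlk1 rose 3.0-fold under adenine (log2 fold change of 1.58 ± 0.13 (SE), adjusted p = 2.42e-08) and 2.74-fold under SAM (1.45 ± 0.13, adjusted p = 4.85e-08). The smaller difference under DZ (0.52 ± 0.13, adjusted p = 0.00285) was no longer called without CTL replicate 2 (0.46), DZ replicate 2 (0.47), or DZ replicate 3 (0.50), nor when the recovered reads were weighted with voom (0.53, adjusted p = 0.0158). Reads of Dlk1 numbered 115 to 125 in CTL and 314 to 496 in adenine. Folds refer to the scale of log2 CPM with the prior count of 2 reads that the authors' step adds, which understates the change of low genes slightly.

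Igf2r is the receptor that takes up the growth factor IGF2 for degradation, and it also sorts lysosomal enzymes. It is expressed from the maternal allele in mouse (chromosome 17, 12901293 to 12988614, minus strand). Its log2 CPM was 9.09, 9.12, and 9.06 in CTL, 8.75, 8.83, and 8.73 in DZ, 8.84, 8.85, and 8.78 in adenine, and 8.56, 8.49, and 8.22 in SAM. The CTL libraries were the highest and the SAM libraries the lowest, with no overlap of either with another group, whereas DZ and adenine overlapped. Igf2r fell 1.25-fold under DZ (log2 fold change of -0.32 ± 0.062, adjusted p = 0.00041) and 1.59-fold under SAM (-0.67 ± 0.062, adjusted p = 8.8e-08). Under adenine the fall was 1.2-fold (-0.27 ± 0.062, adjusted p = 0.00121), and this call was lost on quantile-normalized values (-0.14, adjusted p = 0.0626). Each library held 14948 to 26581 reads of the gene.

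Grb10 encodes an adaptor that binds the insulin and IGF1 receptors and dampens their signal. In most mouse tissues outside the brain it is expressed from the maternal allele (chromosome 11, 11880498 to 11988683, minus strand). Its log2 CPM was 9.77, 9.75, and 9.74 in CTL, 9.76, 9.76, and 9.74 in DZ, 9.32, 9.41, and 9.41 in adenine, and 8.91, 8.91, and 8.78 in SAM. CTL and DZ overlapped, all adenine libraries were below both, and all SAM libraries were lower still. Grb10 fell 1.29-fold under adenine (log2 fold change of -0.37 ± 0.035, adjusted p = 1.34e-07) and 1.85-fold under SAM (-0.89 ± 0.035, adjusted p = 2.57e-12). Under DZ the log2 fold change was -0.0044, with a 95% interval of -0.08 to 0.07, and it had the opposite sign on plain read totals (0.021) and on quantile-normalized values, where it passed the test (0.13, adjusted p = 0.00586). With 22006 to 42785 reads, Grb10 was the most abundant of the 7 and more abundant on average than 99.1% of the genes in the table.

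Mest, also called Peg1, encodes a protein resembling hydrolases that is linked to growth of mesodermal and fat tissue, and is expressed from the paternal allele (chromosome 6, 30723546 to 30752058, plus strand). Its log2 CPM was 0.17, 0.22, and 0.41 in CTL, 1.91, 1.55, and 1.65 in DZ, 3.45, 3.52, and 3.29 in adenine, and 3.50, 3.59, and 3.63 in SAM. The groups CTL, DZ, and adenine did not overlap, and SAM reached the range of adenine. Mest rose 2.7-fold under DZ (log2 fold change of 1.43 ± 0.11, adjusted p = 4.44e-08), 8.87-fold under adenine (3.15 ± 0.11, adjusted p = 1.4e-12), and 9.88-fold under SAM (3.30 ± 0.11, adjusted p = 3.93e-13). Among all genes this rise ranked 73 under DZ, 6 under adenine, and 8 under SAM. In reads it went from 48 to 59 in CTL to 618 to 683 in SAM.

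Plagl1, also known as Zac1, encodes a zinc finger transcription factor that restrains proliferation and is expressed from the paternal allele (chromosome 10, 12936248 to 13007438, plus strand). Measured log2 CPM was 3.66, 3.80, and 3.92 in CTL, 4.43, 4.10, and 4.58 in DZ, 4.58, 4.59, and 4.63 in adenine, and 4.02, 3.51, and 3.93 in SAM. DZ and adenine lay above CTL without overlap, whereas the SAM libraries surrounded the CTL range. The gene rose 1.49-fold under DZ (log2 fold change of 0.58 ± 0.13, adjusted p = 0.00122) and 1.75-fold under adenine (0.81 ± 0.13, adjusted p = 3.74e-05). Under SAM the log2 fold change was 0.025, with a 95% interval of -0.25 to 0.30, and its sign turned with median centring (-0.014) and quantile normalization (-0.077), all far from the threshold.

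H19 is a maternally expressed non-coding RNA that shares enhancers with Igf2 and hosts a microRNA (chromosome 7, 142129262 to 142133957, minus strand). The libraries gave log2 CPM of 4.65, 4.64, and 4.53 in CTL, 5.34, 5.48, and 5.59 in DZ, 7.35, 7.59, and 7.06 in adenine, and 7.09, 7.04, and 7.03 in SAM. Libraries of CTL, of DZ, and of the other two treatments formed 3 separate steps, and adenine replicate 3 fell inside the range of SAM. H19 rose 1.82-fold under DZ (log2 fold change of 0.86 ± 0.095, adjusted p = 2.01e-06), 6.62-fold under adenine (2.73 ± 0.095, adjusted p = 1.3e-12), and 5.45-fold under SAM (2.45 ± 0.095, adjusted p = 2.19e-12). Its rise ranked 17 of all genes under adenine and 79 under SAM. At 1056 to 1192 reads in CTL and 6613 to 10734 in adenine, H19 was measured far above the low end of the table.

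Meg3, a maternally expressed non-coding RNA (chromosome 12, 109506877 to 109538165, plus strand), lies 77615 bp from Dlk1 in the same imprinted cluster. Its log2 CPM was 0.81, 0.51, and 0.48 in CTL, 0.62, 0.35, and 0.52 in DZ, 0.35, 1.10, and 0.35 in adenine, and 0.59, 0.51, and -0.00287 in SAM. The groups overlapped throughout, and adenine replicate 2 and SAM replicate 3 were the highest and the lowest library. The log2 fold changes of Meg3 were -0.10 under DZ (95% interval of -0.56 to 0.36, adjusted p = 0.705), -0.0032 under adenine (-0.46 to 0.46, adjusted p = 0.991), and -0.24 under SAM (-0.70 to 0.23, adjusted p = 0.331). A change within these intervals was not detectable at this depth. Only 0.159% of the genes had a lower mean than Meg3, and the sign under adenine turned on 4 other scales of the values.

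**Figure D2:**
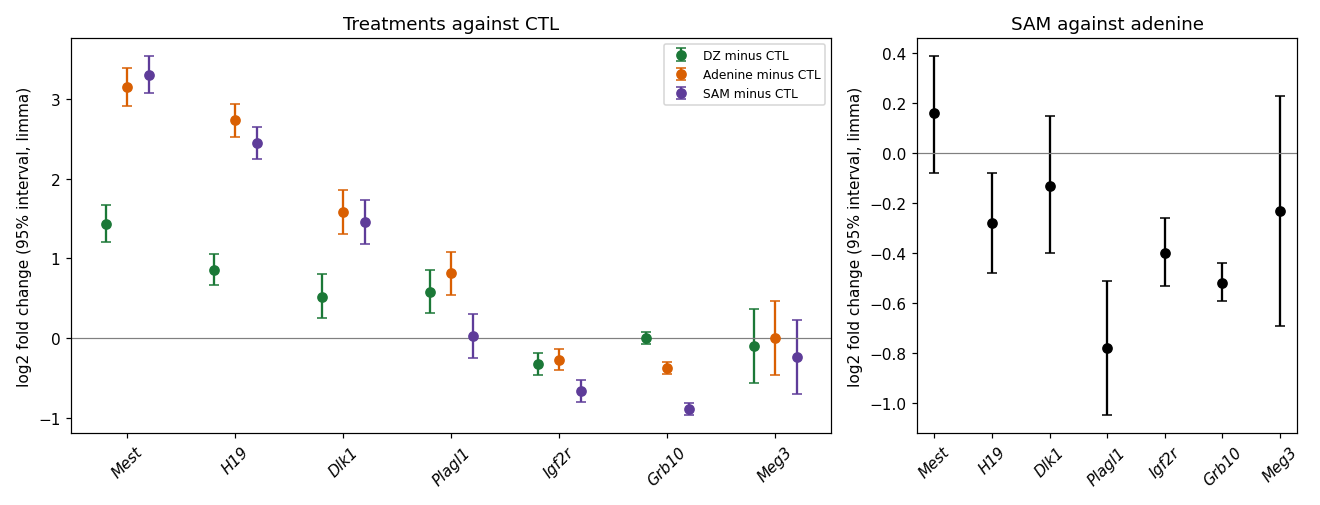
Log2 fold changes with 95% intervals from limma (y axis) for each gene (x axis), for DZ, adenine, and SAM against CTL on the left and SAM against adenine on the right. On the left Mest, H19, and Dlk1 lie above 0 for all treatments, and on the right the intervals of Plagl1, Igf2r, and Grb10 lie wholly below 0.

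Compared per length of the canonical transcript, CTL levels spanned Grb10 with 170.0 CPM per kb, Igf2r with 61.0, H19 with 11.0, Plagl1 with 2.58, Mest with 0.958, Meg3 with 0.921, and Dlk1 with 0.598. Under adenine H19, with 73.7 CPM per kb, stood above Igf2r, with 50.6, and Mest, with 8.5, above Plagl1, with 4.5. Under SAM the level of H19 was 60.1 and that of Igf2r 38.6, and Grb10, at 91.6, was still the highest of the 7. These levels assume that the canonical isoform carries the reads.

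SAM and adenine were given at the same concentration and for the same time, and they differ in structure in that adenine is the free purine base whereas SAM carries that base within a sulfonium compound of adenosine and methionine. Between them, 3 of the 7 genes were called, all lower in SAM, where 42.7% of all genes were called, 20.8% higher and 22% lower. Plagl1 was 1.72-fold lower in SAM than in adenine (log2 difference of -0.78 ± 0.13, adjusted p = 0.000104), Grb10 1.43-fold lower (-0.52 ± 0.035, adjusted p = 1.25e-08), and Igf2r 1.32-fold lower (-0.40 ± 0.062, adjusted p = 7.46e-05). For H19 the log2 difference was -0.28 (95% interval of -0.48 to -0.08), and with an adjusted p of 0.0211 it was not called, though it was without adenine replicate 3 (-0.42, adjusted p = 0.000388). No difference was called for Mest (0.16, 95% interval of -0.08 to 0.39), Dlk1 (-0.13, -0.40 to 0.15), or Meg3 (-0.23, -0.69 to 0.23). DZ was given at another concentration, so its values are only set beside the others.

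By parental allele, the 3 paternally expressed genes with values (Dlk1, Mest, and Plagl1) were all called higher under DZ and adenine, and Dlk1 and Mest also under SAM. Of the 4 maternally expressed genes, H19 was called higher under each treatment, Igf2r lower under each, and Grb10 lower under adenine and SAM. Among all genes, 22.6% were called higher and 23.4% lower under DZ, 30.6% and 31% under adenine, and 33.7% and 35.7% under SAM. With 3 and 4 genes, chosen with results known, this split is a description, and a link to the parental allele was not tested. On plain read totals in place of the authors' scaling, the median of all genes shifted by 0.122 on the log2 scale for SAM against CTL and by less than that elsewhere, and each of the calls of the 7 genes held its direction. The share of higher genes among those called went from 48.5% to 61.2% for SAM against CTL and from 48.6% to 63.2% for SAM against adenine.

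Beyond the 7 genes, 70 other imprinted genes were listed, of which 30 had values. Under DZ 3 of them rose and 11 fell, under adenine 9 rose and 12 fell, and under SAM 8 rose and 15 fell. The shares called, 46.7%, 70%, and 76.7%, were near the 45.9%, 61.6%, and 69.3% of all genes. On plain read totals the SAM count became 12 higher and 13 lower, and the DZ count 3 higher and 7 lower. With median centring the adenine count became 6 higher and 13 lower. The medians of their log2 fold changes were -0.10, -0.12, and -0.087, beside 0.52, 0.81, and 0.025 for the 7 growth regulators, which were chosen with these values known, and -0.0057, -0.003, and -0.015 for all genes. Sfmbt2, a Polycomb protein gene, had the largest change of the 30 under adenine (log2 fold change of -1.15, adjusted p = 5.95e-11) and fell by 1.65 with SAM (adjusted p = 6.03e-13), and its DZ value of -0.20 (adjusted p = 0.00839) lost its call when any library of CTL, or DZ replicate 1 or 3, was left out (-0.20 to -0.18). The Sfmbt2 call under DZ was also lost on plain read totals (-0.17). Ndn, a MAGE family gene of the Prader-Willi cluster, rose by 1.0 under adenine (adjusted p = 4.18e-08) and 0.94 with SAM (adjusted p = 5.77e-08). Under DZ its value had the other sign (-0.32, adjusted p = 0.00482), a call that was lost without CTL replicate 1 (-0.28), CTL replicate 3 (-0.32), DZ replicate 1 (-0.31), or DZ replicate 3 (-0.31). The Ndn call was also lost on quantile-normalized values (-0.24), with voom (-0.32), and in a fit of the 2 groups alone (-0.32). Sgce, a sarcoglycan gene, fell under DZ (-0.52, adjusted p = 5.81e-05) and rose under adenine (0.69, adjusted p = 1.69e-06) and SAM (0.82, adjusted p = 1.72e-07). None of the 30 rose as much under adenine or SAM as Dlk1, Mest, or H19.

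**Figure D3:**
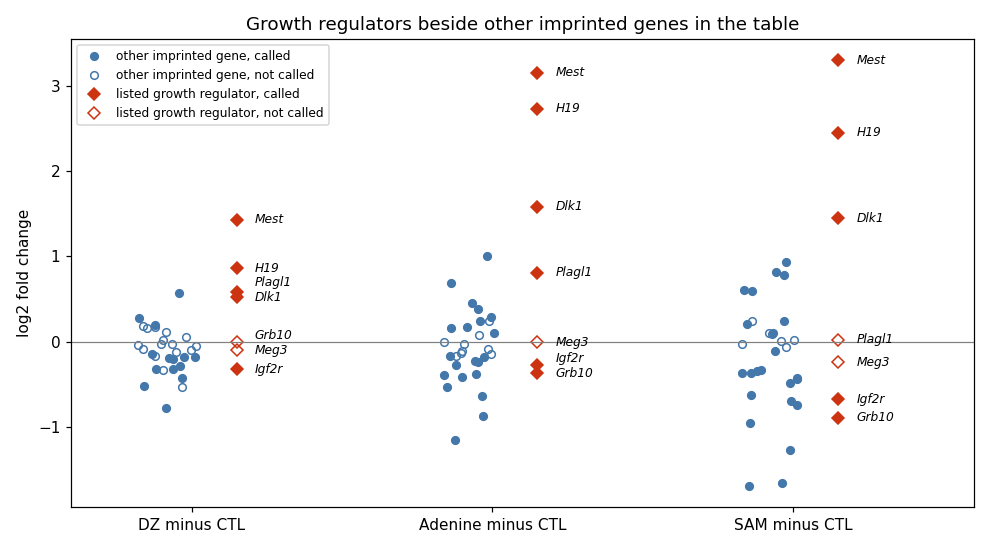
Log2 fold changes (y axis) of the 30 other imprinted genes (circles, spread sideways for legibility) and the 7 growth regulators (diamonds, named) for each treatment against CTL (x axis), filled where called. Mest, H19, and Dlk1 lie above all other imprinted genes under adenine and SAM, whose values run from -1.15 to 1.0 under adenine and from -1.69 to 0.94 under SAM.

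Neighboring genes add context to H19 and Mest. Tnnt3, Lsp1, and Mrpl23 were chosen after their values were seen. Next to H19, Tnnt3, a fast troponin T gene 58982 bp away, rose by 2.16 on the log2 scale under adenine (adjusted p = 5.47e-09) and by 2.57 with SAM (adjusted p = 4.52e-10). Lsp1, an actin-binding protein gene 80658 bp away, rose by 2.15 (adjusted p = 2.07e-14) and 2.21 (adjusted p = 3.63e-15). Mrpl23, a mitochondrial ribosomal protein gene between them and H19, fell by 0.65 under adenine (adjusted p = 1.32e-05), so the rise did not extend to every gene of the interval. Under DZ Lsp1 rose by 0.36 (adjusted p = 1.55e-05), whereas the value of Tnnt3 (0.65, adjusted p = 0.00234) lost its call without CTL replicate 1 (0.54), DZ replicate 2 (0.61), or DZ replicate 3 (0.51). The Tnnt3 call was also lost with voom (0.65) and in a fit of the 2 groups alone (0.65). Of the 15 genes with values within 1 Mb of H19, 6 rose and 5 fell under adenine, and 6 rose and 6 fell under SAM. Over all genes, 30.6% rose and 31% fell under adenine, and 33.7% rose and 35.7% fell under SAM.

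At Mest, Cpa4, a carboxypeptidase gene 131129 bp away, rose by 1.39 under DZ (adjusted p = 1.03e-08), 2.27 with adenine (adjusted p = 7.43e-12), and 2.30 with SAM (adjusted p = 3.82e-12). Cep41, a centrosomal protein gene 29787 bp away, rose by 0.42, 0.81, and 0.74 under the same treatments (adjusted p = 1.66e-04, 7.55e-08, and 1.51e-07). Cpa4 and Cep41 were also chosen after their values were seen. Copg2, a coat protein subunit gene that overlaps the end of Mest on the opposite strand, fell by 0.38 under adenine (adjusted p = 1.56e-06) and 0.37 with SAM (adjusted p = 1.39e-06), while its value under DZ was 0.021. Among the 12 genes with values within 1 Mb of Mest, 4 were called higher and 2 lower under DZ, against 22.6% and 23.4% of all genes. Under adenine 2 were called higher and 5 lower, against 30.6% and 31% of all genes. The SAM count was 3 higher and 6 lower, against 33.7% and 35.7%.

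Airn, the paternally expressed antisense RNA that silences the paternal copy of Igf2r, overlaps Igf2r on the opposite strand. It fell by 0.77 on the log2 scale under DZ (adjusted p = 6.48e-06) and by 1.27 with SAM (adjusted p = 6.35e-09), and under adenine its value was -0.16 (adjusted p = 0.152). The difference between SAM and adenine was -1.11 (adjusted p = 1.7e-07). Airn and Igf2r both had their lowest mean RNA in SAM. Of the 12 genes with values within 1 Mb of Igf2r, 3 rose and 3 fell under adenine, and 4 rose and 5 fell under SAM. Over all genes, 30.6% rose and 31% fell under adenine, and 33.7% rose and 35.7% fell under SAM. Acat3 and Acat2, chosen after their values were seen, rose by 1.89 and 1.74 under adenine (adjusted p = 2.21e-09 and 2.7e-14). With SAM they rose by 3.07 and 2.93 (adjusted p = 4.02e-12 and 3.06e-17). The libraries keep strand, but the sources used here do not say whether the quantification did, so reads where Airn meets Igf2r or Copg2 meets Mest may not have been told apart.

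Around Cdkn1c, itself not analyzed, Kcnq1ot1, the antisense RNA that silences the paternal copies of that cluster, had a log2 fold change of -0.95 with SAM (adjusted p = 1.55e-06) and -0.13 under adenine (adjusted p = 0.311). The difference between the pair was -0.82 (adjusted p = 2.44e-05). Tssc4, in the same cluster, rose by 0.39 under adenine (adjusted p = 9.89e-06) and 0.78 with SAM (adjusted p = 2.39e-09), and for Cd81, Nap1l4, and Osbpl5 the log2 fold changes stayed between -0.14 and 0.24. Beside Plagl1, Phactr2, a regulator of phosphatase and actin, fell by 0.42, 0.64, and 0.74 under DZ, adenine, and SAM (adjusted p = 0.000213, 1.61e-06, and 2.58e-07), opposite in direction to Plagl1 under DZ and adenine. Beside Grb10, the actin nucleator gene Cobl fell by 0.87 under adenine (adjusted p = 6.42e-05) and 1.69 with SAM (adjusted p = 3.24e-08). Fignl1, the nearest gene with values at 121531 bp and chosen after its values were seen, rose by 2.17 under adenine (adjusted p = 9.99e-14) and 2.79 with SAM (adjusted p = 2.61e-15). The third gene with values within 1 Mb of Grb10, Gm12599, fell by 1.0 and 0.93 (adjusted p = 3.64e-06 and 6.26e-06), so that the neighbors of Grb10 moved in both directions.

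**Figure D4:**
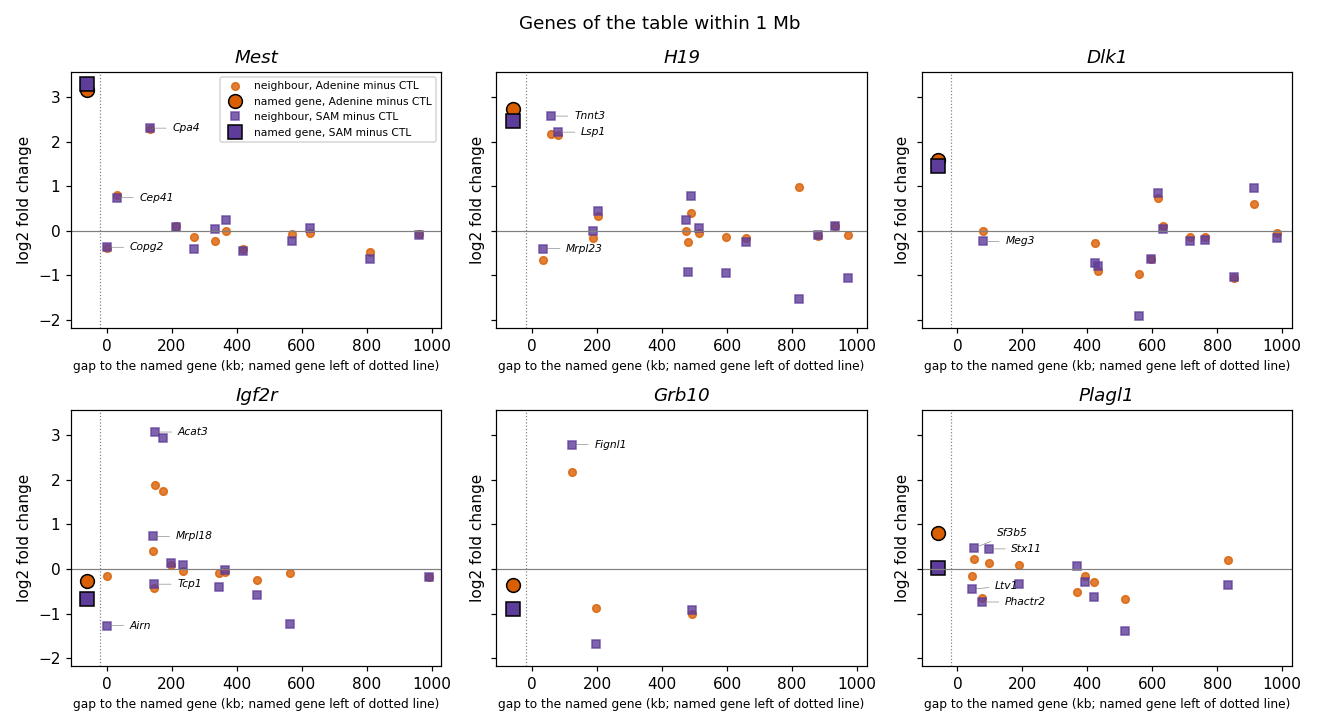
Log2 fold changes (y axis) under adenine and SAM of genes with values within 1 Mb of 6 growth regulators against the gap in kb to that gene (x axis), with the regulator itself drawn larger at the left and genes within 150 kb named. Tnnt3, Lsp1, and Cpa4 lie above 2 beside H19 and Mest, while Copg2 and Mrpl23 lie below 0. Beside regulators that fell, Fignl1 lies above 2 at Grb10, and Acat3 reaches 3.07 under SAM at Igf2r.

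H19 and Mest each hold a microRNA gene, whose mature forms were not measured in these polyadenylated RNA libraries. Since both hosts rose most, the mature sequences are given from RefSeq (GRCm38.p6), with the seed (bases 2 to 8) in capitals. The miR-335 arms lie at chr6:30741314-30741336 and chr6:30741354-30741375 (plus strand), and the miR-675 arms at chr7:142577112-142577133 and chr7:142577078-142577099 (minus strand). The 4 seeds differ from each other.
mmu-miR-335-5p (in Mest): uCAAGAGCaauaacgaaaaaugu
mmu-miR-335-3p (in Mest): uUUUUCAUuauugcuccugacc
mmu-miR-675-5p (in H19): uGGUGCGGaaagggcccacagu
mmu-miR-675-3p (in H19): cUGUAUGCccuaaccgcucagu

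Igf2r and Grb10 act on the IGF pathway, with its ligands, receptors, and binding proteins. Of 24 listed genes, 23 had values, and 8 rose and 4 fell under DZ, 8 rose and 6 fell under adenine, and 10 rose and 8 fell under SAM. These were 52.2%, 60.9%, and 78.3% of the 23, beside 45.9%, 61.6%, and 69.3% of all genes. The adenine count became 8 higher and 9 lower with median centring, and the SAM count 11 higher and 5 lower on plain read totals. The IGF binding protein gene Igfbp5 rose by 1.77 on the log2 scale under DZ (adjusted p = 5.87e-11), 2.46 with adenine (adjusted p = 2.42e-13), and 0.87 with SAM (adjusted p = 2.11e-08), with SAM below adenine by 1.59 (adjusted p = 1.22e-10). Igfbp2 rose by 1.43, 1.73, and 1.75 (adjusted p = 1.77e-09, 3.08e-11, and 1.79e-11). Igfbp4 fell by 0.73 under adenine (adjusted p = 4.38e-11) and 1.70 with SAM (adjusted p = 2.39e-15), with a value of -0.12 under DZ (adjusted p = 0.00734) whose call was lost on leaving out CTL replicate 1 or 3 or any 1 of the 3 DZ libraries (-0.13 to -0.10). The DZ call of Igfbp4 was also lost on plain read totals (-0.099), on quantile-normalized values (-0.11), and without the variance trend (-0.12). Igf1, the ligand itself, was chosen after its values were seen: it rose by 1.96 under adenine (adjusted p = 1.12e-09) and 2.0 with SAM (adjusted p = 6.02e-10), and its value under DZ was 0.18 (adjusted p = 0.231).

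Cdkn1c belongs to the CDK inhibitors, which stop the cell cycle, and all 6 of its listed relatives had values. Under adenine 5 rose and 1 fell, under SAM 4 rose and 2 fell, and under DZ 3 rose and 1 fell, which with 6 genes is no more than a description beside the 61.6%, 69.3%, and 45.9% of all genes called. Cdkn2c rose by 0.32, 1.42, and 1.57 on the log2 scale under DZ, adenine, and SAM (adjusted p = 2.59e-05, 5.88e-13, and 8.2e-14), and Cdkn2d by 0.95 under adenine and 1.48 with SAM (adjusted p = 3.57e-07 and 1.31e-09), with a value of 0.018 under DZ (adjusted p = 0.887). Cdkn2a rose by 0.24, 0.34, and 0.71 (adjusted p = 0.000326, 4.22e-06, and 6.42e-10), and Cdkn2b by 0.20, 0.41, and 0.85 (adjusted p = 0.000417, 1.19e-07, and 1.33e-11). Cdkn1a, the p53 target that encodes p21, fell under DZ (-0.75, adjusted p = 4.82e-06), rose under adenine (0.54, adjusted p = 6.01e-05), and fell under SAM (-1.16, adjusted p = 9.98e-09), with SAM below adenine by 1.70 (adjusted p = 7.04e-10). Cdkn1b fell by 0.51 with SAM (adjusted p = 5.51e-09), and its value under adenine was -0.13 (adjusted p = 0.00479), a call that was lost without CTL replicate 2 or 3 (-0.12 and -0.13), without adenine replicate 1 or 2 (-0.13 and -0.12), and on plain read totals (-0.073). This call was also lost on quantile-normalized values (-0.11) and without the variance trend (-0.13).

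Of 25 listed factors that write, read, keep, or remove imprints (the TET genes among the last), 21 had values. Of these, 11 rose and 2 fell under adenine, 13 rose and 1 fell under SAM, and 2 rose and 6 fell under DZ. The shares called were 61.9%, 66.7%, and 38.1%, against 61.6%, 69.3%, and 45.9% of all genes. Under SAM the gene that fell was Arid4b (-0.21, adjusted p = 0.000456), chosen after its values were seen, and on plain read totals, where its value was -0.087 (adjusted p = 0.0725), 15 rose and 0 fell. With median centring 9 rose and 3 fell under adenine, 11 rose and 2 fell under SAM, and 1 rose and 7 fell under DZ. The DZ count was 1 higher and 6 lower on quantile-normalized values and 4 higher and 6 lower on plain read totals. Uhrf1, which guides DNA methylation maintenance to newly copied DNA, rose by 1.97 on the log2 scale under adenine (adjusted p = 1.2e-14) and 2.59 with SAM (adjusted p = 1.31e-16), and its DZ value of 0.15 (adjusted p = 0.00619) lost its call on leaving out any 1 of the 3 CTL libraries or DZ replicate 2 or 3 (0.11 to 0.16). The Uhrf1 call under DZ was also lost with median centring (0.13), without the variance trend, with voom, and in a fit of the 2 groups alone (0.15 each). Ezh2, the methyltransferase of Polycomb complex PRC2, fell by 0.24 under DZ (adjusted p = 0.000321) and rose by 0.64 under adenine (adjusted p = 3.45e-09) and 0.99 with SAM (adjusted p = 1.08e-11). Zfp57 fell by 0.54 under DZ (adjusted p = 7.97e-09) and 0.21 with adenine (adjusted p = 8.85e-05) and rose by 0.39 with SAM (adjusted p = 6.47e-08). Dnmt1, the maintenance DNA methyltransferase, chosen after its values were seen, rose by 1.32 under adenine (adjusted p = 1.44e-12) and 1.57 with SAM (adjusted p = 9.91e-14), and its value under DZ was 0.079.

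The genes most like each growth regulator over the 12 libraries were found among 10308 genes with a mean log2 CPM of at least 3, as a description: the libraries fall into 4 groups, so likeness mostly reflects the group levels. The highest Pearson r was 0.996 for H19 (Megf6, then Gas6 with 0.995), 0.996 for Mest (Fam43a, then Serpina3g with 0.995), 0.989 for Dlk1 (Pofut2 and Gas6), 0.998 for Grb10 (Niban1, then Nfe2l1 with 0.996), and 0.98 for Igf2r (Gm6363, then Rere with 0.978). It was lower for Plagl1 (Carm1 with 0.907 and Gpc4 with 0.896) and for Meg3 (Map4k4 with 0.83 and Zfp652 with 0.748). Gas6, which encodes a ligand of the TAM receptors, was thus near the top for both H19 and Dlk1.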

How the data were processed

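Polyadenylated RNA of 12 dishes was sequenced as strand-keeping libraries. The authors trimmed reads with Trimmomatic, aligned them to GRCm39 with HISAT2 (GENCODE vM27), quantified them with StringTie, kept genes of at least 1 CPM in all samples, and deposited log2 values of CPM on normalized library sizes from edgeR. These log2 values were tested as they stand with limma 3.58.1 in R 4.3.3: lmFit on 12 libraries, contrasts of the groups, and eBayes with a variance trend, with Benjamini-Hochberg adjustment over all 12591 genes and an FDR threshold of 0.01. Whole reads were recovered for 100% of values (tolerance 0.05 of a read, prior count 2) and gave the depth. The fit was tested on simulated data for the 3 treatments against CTL (200 genes changed in each by 2-fold or 4-fold, 12591 genes run). It recovered 100% of the changed genes at either size, and at most 0.99% of calls were false. The simulation gave all genes a single dispersion and held no change below 2-fold, whereas 45.9% to 69.3% of genes were called in the data. It therefore does not cover smaller changes, such as those of Igf2r.

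Genes were matched to GENCODE vM39 by Ensembl identifier (12575 of 12591). Python 3.11.15, numpy 2.4.6, pandas 2.3.3, and matplotlib 3.10.9 were used for tables and plots. The members and gene lists were chosen with earlier results of these data known. Named genes are the members, other imprinted genes within 1 Mb of a member, from each list at most 3 genes (those of largest change among genes called in most contrasts with CTL), all CDK inhibitors, and the 2 genes most correlated with each member, and further names are marked as chosen after their values were seen. The labels do not say whether equal replicate numbers mark paired dishes, and the groups were compared without pairing. Between dishes of equal number, the Pearson r of deviations from group means lay between -0.142 and 0.181. With 3 dishes per group these values cannot show whether dishes were paired. Alternatives were the variance trend, robust estimation, a filter at a mean log2 CPM of 3, 3 other scalings, voom, a pseudocount of 1 CPM, other thresholds, separate fits, a replicate block, protein-coding genes with the members only, and leaving out each library.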

Additional observations from a re-analysis of the deposited data

How the results depend on the processing

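Over 13 alternatives and leaving out each of 12 libraries, 520 values of the 7 genes were recomputed. Of these, 491 kept direction and call, 9 lost the call, 2 gained it with the same sign, and 18 changed sign. None of the 18 was in a value called in the fit of all 12 libraries. After its change of sign, however, Grb10 under DZ passed the test with quantile normalization (0.13). Sign changes were found for Plagl1 under SAM with median centring (-0.014) and quantile normalization (-0.077), for Grb10 under DZ with quantile normalization (0.13) and plain read totals (0.021), and for Meg3 under adenine with quantile normalization (0.056), plain read totals (0.057), voom (0.0049), and the pseudocount (0.0065). Leaving out single libraries moved these values between -0.077 and 0.18 (Plagl1, SAM), -0.011 and 0.0030 (Grb10, DZ), -0.25 and 0.12 (Meg3, adenine), -0.16 and 0.0045 (Meg3, DZ), and -0.36 and 0.019 (Meg3, SAM against adenine). A mean log2 CPM of at least 3 keeps 4 of the 7 genes. With it the count called went from 5 to 3 under DZ and under SAM, and from 6 to 4 under adenine. Requiring an absolute log2 fold change of 0.5 lowered the genes called to 1536 (DZ), 3386 (adenine), 4425 (SAM), and 1215 (SAM against adenine). This cutoff took the call from Igf2r under DZ (-0.32), under adenine (-0.27), and between SAM and adenine (-0.40), and from Grb10 under adenine (-0.37). H19 gained a call between SAM and adenine (adjusted p = 0.0211 in limma) at the looser FDR threshold. With the replicate block each of the 7 genes, compared one by one, kept its direction and its call or lack of one in all 4 comparisons (5, 6, 5, and 3 called), and 5762, 7739, 8734, and 5337 of all genes were called. Apart from the calls that changed with a threshold or filter, the cause of the changes was not tested. Depth limits Meg3 most, with 48 to 117 reads in each library.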
